A study of Arabidopsis thaliana with 6 samples.

Results

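Roots of the rsl4-1 mutant of Arabidopsis thaliana were compared with roots of Col-0, the wild type. The comparison takes 4 of the 6 ATH1 arrays of the series, picked by their titles: 2 titled rsl4-1 and 2 titled Col-0. The remaining 2 arrays, titled 35S::RSL4, are of plants in which RSL4 is placed under the 35S promoter of cauliflower mosaic virus, active in most plant tissues. They entered the estimate of the spread, and their signals are set beside those of the other genotypes. All plants had the Col-0 background, and each array carries labelled total RNA from roots at stage 3.20 of seedlings grown upright on plates with 1% sucrose in constant light at 25 °C. For rsl4-1 the labels enter a T-DNA knock-out, and they repeat that entry for 35S::RSL4, so the genotypes are those of the titles. The labels give 4 days of cold before germination for every sample and, for the Col-0 samples, an entry of 2 days as well. Nothing in them ties the 2 arrays of a genotype to separate sowings, so p-values measure only how these samples spread, and that spread may be technical. Whole roots were used, so fewer cells of a type and less RNA per cell cannot be told apart.

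Root hairs are outgrowths of single epidermal cells that lengthen at their tip and take up water and nutrients. RSL4, a transcription factor of the basic helix-loop-helix class, acts late in hair development, downstream of RHD6 and RSL1, and plants without it have short hairs. Growth at the tip depends on new wall: expansins and xyloglucan endotransglucosylases (XTH) loosen it, extensins build its protein network, class III peroxidases act on hydrogen peroxide there, and microtubules and secretion direct its delivery.

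A probe set is the group of short probes that measures one transcript, and its signal is in scaled units whose trimmed mean is 100 on each array. Of 22746 probe sets, controls aside, 14170 were bright enough to be tested with limma: they were above the 40th percentile of the array on at least 2 of the 6 arrays. A change was called at a Benjamini-Hochberg adjusted p under 0.05, and changes are log2 of rsl4-1 over Col-0. Their SE had a median of 0.17. Across the tested probe sets, arrays of the same genotype had a Pearson correlation of 0.982 to 0.986, and those of different genotypes 0.957 to 0.972. The gene annotation placed 7661 of the tested probe sets, 590 in the stretch of chromosome 1 from AT1G16170 to AT1G48090 and 7071 elsewhere. It left 6509 without a single placed gene. RSL4 itself (AT1G27740) has no probe set in that annotation, so its level could not check the labels. It lies in the stretch of chromosome 1, which is called the interval here and was drawn with earlier results of these data known.

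Inside the interval falls outnumbered rises. Outside it rises outnumbered falls, a direction that turned on omitting either rsl4-1 array and with no intensity trend in the variance model. Extensin genes were among the falls and XTH genes among the rises, and expansin, peroxidase and CAP family genes were called in both directions. Of all probe sets tested, 236 were higher in rsl4-1 (1.67%) and 304 lower (2.15%), together 3.81%. Outside the interval 106 of 7071 rose (1.5%) and 80 fell (1.13%), together 2.63%. Inside it 26 of 590 rose (4.41%) and 59 fell (10.0%), together 14.4%. Among called probe sets the median fold was 1.67 for rises and 1.83 for falls outside, against 1.75 and 2.03 inside. On every called probe set both rsl4-1 arrays lay on the same side of both Col-0 arrays, so the 2 genotypes did not overlap for any gene called below. The same held for 48.0% of all probe sets tested, called or not (46.3% outside and 59.5% inside), so the lack of overlap adds nothing to a call. Without the first or second Col-0 array, or the first or second rsl4-1 array, there were 41, 38, 29 and 38 rises and 38, 28, 38 and 41 falls outside. With no intensity trend there were 58 rises and 60 falls outside. Inside, the same omissions left 16, 13, 5 and 7 rises and 35, 21, 37 and 35 falls. After centring each array on its median, which moves the comparison by 0.05 on the log2 scale, the split of all probe sets turned from 236 rises to 304 falls (43.7% rises) to 323 to 261 (55.3%). It was then 150 rises to 69 falls outside (68.5% rises, against 56.99%) and 33 to 53 inside (38.4%, against 30.6%).

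Some calls held whichever of the 4 arrays was left out: 18 falls and 17 rises outside, and 19 falls and 3 rises inside. A further 2 rises outside and 3 inside held when either Col-0 array was omitted but could not be tested without either rsl4-1 array. They passed the filter only through the 2 rsl4-1 arrays, where they are high, so their calls are less firm. The plots of signals by array show both kinds of call, singled out after their values were seen. For other called genes each omitted array that ended the call is given, with the adjusted p or the log2 change without it in parentheses.

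Among the falls outside the interval were genes of the growing hair wall. EXPA7 (AT1G12560) and EXPA18 (AT1G62980) encode expansins of root hair cells. EXPA7 had signals of 99.4 and 114 in Col-0 and 72.8 and 59.8 in rsl4-1, and of 275 and 301 in 35S::RSL4. EXPA18 had signals of 277 and 244 in Col-0 and 183 and 160.2 in rsl4-1, and of 436 and 465 in 35S::RSL4. Both genes were lowest in rsl4-1 and highest in 35S::RSL4, with no overlap between any 2 genotypes. The share of all tested probe sets with such an order is not given here. For these and the genes below, the order is therefore a description only. The drop in rsl4-1 was 1.61-fold for EXPA7 (log2 change -0.69, SE 0.15, adjusted p = 0.017) and 1.52-fold for EXPA18 (log2 change -0.60, SE 0.14, adjusted p = 0.02). Each call was close to its limit, since that of EXPA7 ended on omitting Col-0 array 1 (adjusted p = 0.055), Col-0 array 2 (0.21) or rsl4-1 array 2 (0.18) and that of EXPA18 on omitting Col-0 array 1 (adjusted p = 0.22), Col-0 array 2 (0.071), rsl4-1 array 1 (0.055) or rsl4-1 array 2 (0.19). With no intensity trend in the variance model both ended (adjusted p = 0.059 and 0.077). XTH26 (AT4G28850), a xyloglucan enzyme gene of hair cells, had the same order of genotypes without passing the test: 40.6 and 35.4 in Col-0 and 26.9 and 22 in rsl4-1, and 99.4 and 117 in 35S::RSL4 (log2 change -0.64, adjusted p = 0.078).

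Extensins are hydroxyproline-rich proteins that crosslink into the wall. Of the 7 extensin genes tested, 4 fell, against 2.15% of all probe sets tested, and none rose. All 7 had a log2 change below 0, with a median of -0.92 against -0.03 over all probe sets tested. This list was assembled after the values were seen, so its counts only describe its members. The earlier list of extensins and proline-rich wall proteins had 3 tested genes, of which 2 fell. AT4G08410 had signals of 135 and 141 in Col-0 and 60.3 and 54.9 in rsl4-1, and of 213 and 223 in 35S::RSL4. The mutant arrays were the lowest of the 6 and the 35S::RSL4 arrays the highest, and the fall from Col-0 was 2.4-fold (log2 change -1.26, SE 0.14, adjusted p = 5.3e-05). AT5G06630 fell from 279 and 208 to 98.5 and 118, which is 2.24-fold (log2 change -1.16, adjusted p = 0.00036). HRGP1 (AT3G54590) fell from 539 and 534 to 275 and 298, which is 1.87-fold (log2 change -0.91, adjusted p = 0.00048). These 3 probe sets are of a kind that can bind related transcripts, so the 3 genes may share signal. AT3G54580, on a probe set not of that kind, fell 1.9-fold (log2 change -0.92, adjusted p = 0.0044), a call that ended on omitting Col-0 array 1 (adjusted p = 0.07) or rsl4-1 array 1 (0.084). The extensin genes AT1G26250 and AT1G23720 lie inside the interval, and neither was called. The dim signals of AT1G26250, 13 and 9.03 in Col-0 and 1.09 and 9.78 in rsl4-1, overlapped (adjusted p = 0.21). AT1G23720, on a probe set that can also bind related transcripts, had a log2 change of -0.26 (adjusted p = 0.44). AT5G19800, a gene for another hydroxyproline-rich glycoprotein, fell 2.04-fold, from 115 and 99.8 to 51.8 and 53.1, and had 197 and 215 in 35S::RSL4 (log2 change -1.03, adjusted p = 0.0006).

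Some members of the class III peroxidase and CAP families fell, while others, given further on, rose. AT3G49960, a class III peroxidase gene, had signals of 478 and 351 in Col-0 and 153 and 119 in rsl4-1. Both mutant arrays were below both Col-0 arrays, and the 35S::RSL4 arrays stood above them at 529 and 716. It fell 3.04-fold (log2 change -1.60, SE 0.18, adjusted p = 4.3e-05). AT4G30320 and AT4G25790 belong to the CAP family of secreted proteins, which also holds the defence protein PR-1. AT4G30320 had signals of 107 and 107 in Col-0 and 40.5 and 23.9 in rsl4-1, a fall of 3.44-fold (log2 change -1.78, SE 0.23, adjusted p = 0.00021), and 169 and 268 in 35S::RSL4. AT4G25790 had signals of 207 and 189.7 in Col-0 and 82.6 and 78.7 in rsl4-1, a fall of 2.46-fold (log2 change -1.30, SE 0.14, adjusted p = 3.2e-05), and 385 and 443 in 35S::RSL4. For both genes the 3 genotypes were apart, in the order rsl4-1, Col-0, 35S::RSL4.

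Further falls outside the interval were of genes that belong to different families. AT3G07070, which encodes a receptor-like cytoplasmic kinase, fell 2.93-fold, from 105 and 113 to 40.5 and 34.2 (log2 change -1.55, SE 0.16, adjusted p = 1.7e-05). AT3G48940, of the remorin family of membrane-raft proteins, was at least 2.42-fold lower, at 51.3 and 53.8 in Col-0 and 20.2 and 15.1 in rsl4-1 (log2 change -1.59, adjusted p = 0.0003). TET12 (AT5G23030), a tetraspanin gene, was at least 1.24-fold lower, at 27.8 and 26.3 in Col-0 and 10.8 and 8.84 in rsl4-1 (log2 change -1.47, adjusted p = 0.002). The last 2 are bounds because both mutant arrays were below the 40th percentile. AT4G38950, a kinesin motor gene, fell 2.27-fold, from 74.7 and 79.7 to 33.5 and 34.4 (log2 change -1.19, adjusted p = 0.0013). SP1L4 (AT5G15600), a member of the SPIRAL1-like family of microtubule proteins, fell 1.91-fold, from 170.3 and 176 to 88.4 and 93.5 (log2 change -0.93, adjusted p = 0.00066). In 35S::RSL4 the signals of AT3G07070 were 158 and 178, those of TET12 43.7 and 48.9 and those of SP1L4 254 and 247, in each case above Col-0. Those of AT3G48940 and AT4G38950 were 53.1 and 69.1 and 108 and 74.1, in each case with 1 array inside the Col-0 range or below it. AT1G12400, a gene for a small subunit of the transcription and repair factor TFIIH, fell 2.12-fold, from 158 and 158 to 69.9 and 79.8 (log2 change -1.08, adjusted p = 0.0003).

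**Figure D1:**
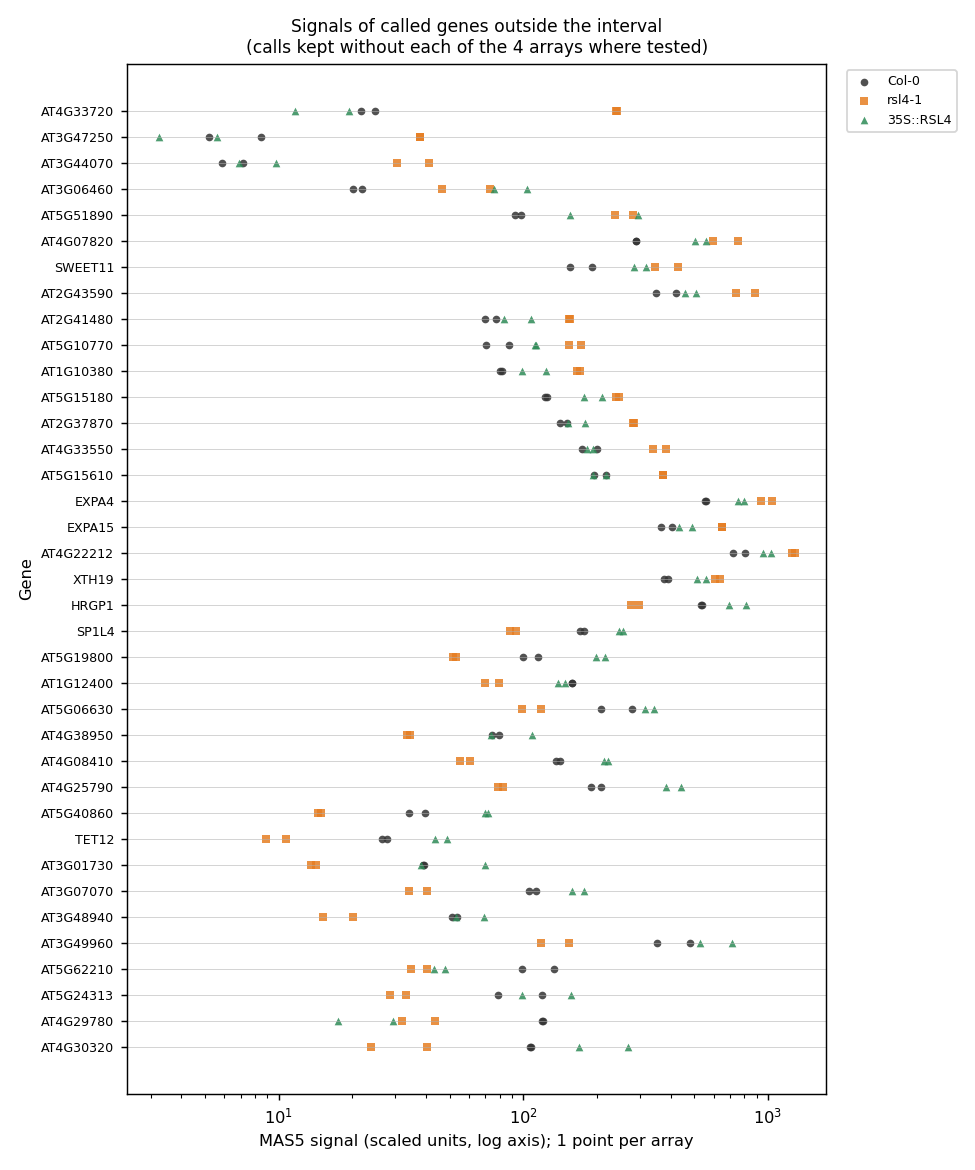
MAS5 signal (scaled units, log axis) of each array for the genes outside the interval whose calls held without each of the 4 arrays wherever tested, 1 point per array, ordered by log2 change from rises at the top to falls at the bottom. Circles are Col-0, squares rsl4-1 and triangles 35S::RSL4. In each row both squares lie to one side of both circles, from AT4G33720 (23.2 in Col-0 and 241 in rsl4-1 on average) to AT4G30320 (107 and 32.2), while the triangles lie on either side.

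Of the other large falls outside the interval, some had 35S::RSL4 signals as low as the mutant's. The early stress response list holds genes that rise within minutes of wounding or touch. Of its 5 tested genes 2 were called, against 3.81% over all probe sets tested. AT4G29780 is a member of that list. It had signals of 119.5 and 121 in Col-0 and 31.9 and 43.7 in rsl4-1, and of 17.5 and 29.2 in 35S::RSL4, so that both lines were below Col-0. It fell 3.22-fold in rsl4-1 (log2 change -1.69, SE 0.23, adjusted p = 0.00036). AT5G62210 fell 3.07-fold, from 133 and 99 to 34.8 and 40.4, with 43.1 and 47.9 in 35S::RSL4 (log2 change -1.62, adjusted p = 5.8e-05). ORA47 (AT1G74930), a jasmonate-responsive transcription factor gene, was at least 2.82-fold lower, at 63 and 60 in Col-0 and 17.7 and 20.9 in rsl4-1, with 2.86 and 5.44 in 35S::RSL4 (log2 change -1.68, adjusted p = 0.0071). That call ended on omitting rsl4-1 array 1 (adjusted p = 0.087) and was too dim to test without either Col-0 array. Of the 5 early stress genes tested, AR781 (AT2G26530) was the other that fell (1.67-fold, log2 change -0.74, adjusted p = 0.034), a call that ended on omitting Col-0 array 2 (adjusted p = 0.37), rsl4-1 array 1 (0.06) or rsl4-1 array 2 (0.27). STZ (AT1G27730), a stress zinc finger gene and the annotated neighbour of RSL4, did not pass in rsl4-1 (301 and 290.1 in Col-0 and 229 and 249 in rsl4-1, log2 change -0.31, adjusted p = 0.28), and had 60.5 and 61.5 in 35S::RSL4. Fitted without the filter, the calls of ORA47 and AR781 ended (adjusted p = 0.071 and 0.11), and that of AR781 ended with no intensity trend too (0.094).

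Other genes outside the interval also fell, several of them dim in rsl4-1. AT5G24313 fell 3.16-fold, from 119.8 and 79.1 to 33.3 and 28.5 (log2 change -1.66, adjusted p = 0.0003), and AT3G01730 and AT5G40860 were at least 1.79-fold and at least 1.69-fold lower (log2 change -1.49, adjusted p = 0.0027, and log2 change -1.32, adjusted p = 0.00093). AT3G43690 was at least 1.07-fold lower (adjusted p = 0.024), a call that ended on omitting Col-0 array 2 (adjusted p = 0.11) or rsl4-1 array 1 (0.23). AT3G47070, a gene for a thylakoid phosphoprotein, was at least 1.25-fold lower (adjusted p = 0.011), a call that ended on omitting Col-0 array 1 (adjusted p = 0.12), Col-0 array 2 (0.089) or rsl4-1 array 1 (0.083). IAA31 (AT3G17600), of the family of auxin response repressors, was at least 1.03-fold lower (adjusted p = 0.012), a call that ended on omitting Col-0 array 1 (adjusted p = 0.075), Col-0 array 2 (0.13) or rsl4-1 array 2 (0.095). EXLA3 (AT3G45960), an expansin-like gene, fell 2.29-fold, from 57.6 and 51.7 to 20.5 and 27.6, and was lower still in 35S::RSL4, at 15.3 and 14.7 (adjusted p = 0.0072 in rsl4-1). Its call ended on omitting Col-0 array 1 (adjusted p = 0.12), Col-0 array 2 (0.068) or rsl4-1 array 1 (0.1). UGT88A1 (AT3G16520) was the 1 called gene among the 30 tested of the UGT glycosyltransferase list, against 3.81% over all probe sets tested. The list leaves out some genes of that family, so the count is of the list only. Of genes it leaves out, AT3G46690 was at least 1.66-fold lower (log2 change -0.92, adjusted p = 0.025). AT2G16890 fell 1.6-fold (log2 change -0.68, adjusted p = 0.032). Both calls ended on omitting any of the 4 arrays. UGT88A1 was at 104 and 102 in Col-0 and 57.6 and 60 in rsl4-1 (adjusted p = 0.0064). Its call ended on omitting Col-0 array 1 (log2 change -0.80), Col-0 array 2 (-0.82) or rsl4-1 array 1 (-0.78). Fitted without the filter, the calls of AT3G43690, AT3G47070, IAA31 and EXLA3 ended (adjusted p = 0.14, 0.084, 0.089 and 0.06).

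The largest measured rise outside the interval was that of AT4G33720, a further CAP family gene. Its signals were 24.7 and 21.7 in Col-0 and 239.6 and 243 in rsl4-1, and 19.4 and 11.7 in 35S::RSL4. The mutant arrays stood far above the other 4, and the rise was 10.4-fold (log2 change 3.38, SE 0.22, adjusted p = 1.6e-07). A second CAP family gene, AT4G07820, rose 2.32-fold, from 288 and 288 to 753 and 594 (log2 change 1.22, SE 0.14, adjusted p = 4.7e-05). In 35S::RSL4 it was at 557 and 504, above Col-0 and below the mutant. Of the 10 CAP family genes tested, then, 2 rose, 2 fell and 6 did not pass, with a median log2 change of -0.03. The calls over all probe sets tested were 3.81%. This list was assembled after the values were seen.

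Some genes of wall-remodelling enzymes rose. XTH18 (AT4G30280), XTH19 (AT4G30290) and XTH20 (AT5G48070), which encode xyloglucan endotransglucosylases, were the 3 of 8 tested XTH genes that rose, and none fell. Over all probe sets tested 1.67% rose and 2.15% fell. XTH19 had signals of 375 and 390.2 in Col-0 and 636 and 609.7 in rsl4-1, a rise of 1.63-fold (log2 change 0.70, SE 0.12, adjusted p = 0.0027), and 558 and 511 in 35S::RSL4. The mutant arrays were the highest of the 6 and the Col-0 arrays the lowest. XTH20 rose 2.02-fold, from 45.7 and 45.4 to 90.9 and 93.1 (log2 change 1.01, adjusted p = 0.0033), a call that ended on omitting rsl4-1 array 2 (adjusted p = 0.0501). XTH18 rose 1.67-fold (log2 change 0.74, adjusted p = 0.0041), a call that ended on omitting Col-0 array 2 (adjusted p = 0.063) or rsl4-1 array 1 (0.057). The list's median log2 change was 0.28, and 7 of its 8 members were above 0, XTH26 being the exception.

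Expansins went both ways. Of 13 tested, EXPA4, EXPA15 and EXLB1 rose, EXPA7, EXPA18 and EXLA3 fell and 7 did not pass. Calls over all probe sets tested were 1.67% rises and 2.15% falls. EXPA4 (AT2G39700) had signals of 559 and 551 in Col-0 and 1043 and 939 in rsl4-1, a rise of 1.78-fold (log2 change 0.83, SE 0.12, adjusted p = 0.00053). EXPA15 (AT2G03090) had signals of 365 and 404 in Col-0 and 647 and 649 in rsl4-1, a rise of 1.69-fold (log2 change 0.75, SE 0.13, adjusted p = 0.002). Their 35S::RSL4 signals, 752 and 799.5 for EXPA4 and 434 and 487 for EXPA15, lay between the other genotypes. EXLB1 (AT4G17030), an expansin-like gene, rose 1.53-fold (log2 change 0.61, adjusted p = 0.034), a call that ended on omitting Col-0 array 1 (adjusted p = 0.13), Col-0 array 2 (0.24), rsl4-1 array 1 (0.23) or rsl4-1 array 2 (0.11). The 7 that did not pass had log2 changes from 0.05 to 0.57, all above 0.

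Class III peroxidases also divided. Of the 37 tested, 7 rose, 3 fell and 27 did not pass, and the median log2 change was 0.17. Over all probe sets tested 1.67% rose and 2.15% fell. This list was assembled after the values were seen, and the earlier list of class III peroxidases had 5 tested genes, of which 2 rose and none fell. The falls were AT3G49960, given above, and AT1G30870 and AT1G34510, both inside the interval. The rises all lay outside it. AT5G51890 had signals of 98.3 and 92.9 in Col-0 and 281 and 237 in rsl4-1, a rise of 2.7-fold (log2 change 1.43, SE 0.22, adjusted p = 0.00078). The 35S::RSL4 arrays, at 156 and 294, were above Col-0 as well. AT2G41480 rose 2.1-fold, from 69.7 and 77.5 to 155 and 154 (log2 change 1.07, adjusted p = 0.00073), and AT5G15180 rose 1.97-fold, from 125 and 122 to 246 and 240.2 (log2 change 0.98, adjusted p = 0.00058). AT5G19890 rose 2.08-fold, from 43.3 and 42.4 to 82.6 and 96.5, and was below Col-0 in 35S::RSL4, at 20.9 and 22.6 (log2 change 1.06, adjusted p = 0.0027). Its call ended on omitting rsl4-1 array 2 (adjusted p = 0.069). The smaller rises were less firm. That of AT5G39580 (1.65-fold, log2 change 0.73, adjusted p = 0.036) ended on omitting Col-0 array 1 (adjusted p = 0.14), Col-0 array 2 (0.21), rsl4-1 array 1 (0.27) or rsl4-1 array 2 (0.1), and that of AT3G01190 (1.42-fold, log2 change 0.50, adjusted p = 0.031) ended on omitting Col-0 array 1 (adjusted p = 0.2), Col-0 array 2 (0.14), rsl4-1 array 1 (0.27) or rsl4-1 array 2 (0.068). PRXR1 (AT4G21960) rose 1.37-fold (log2 change 0.46, adjusted p = 0.02), a call that ended on omitting Col-0 array 1 (adjusted p = 0.0501), Col-0 array 2 (0.16), rsl4-1 array 1 (0.13) or rsl4-1 array 2 (0.13) and also with no filter or no intensity trend (adjusted p = 0.27 and 0.14).

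**Figure D2:**
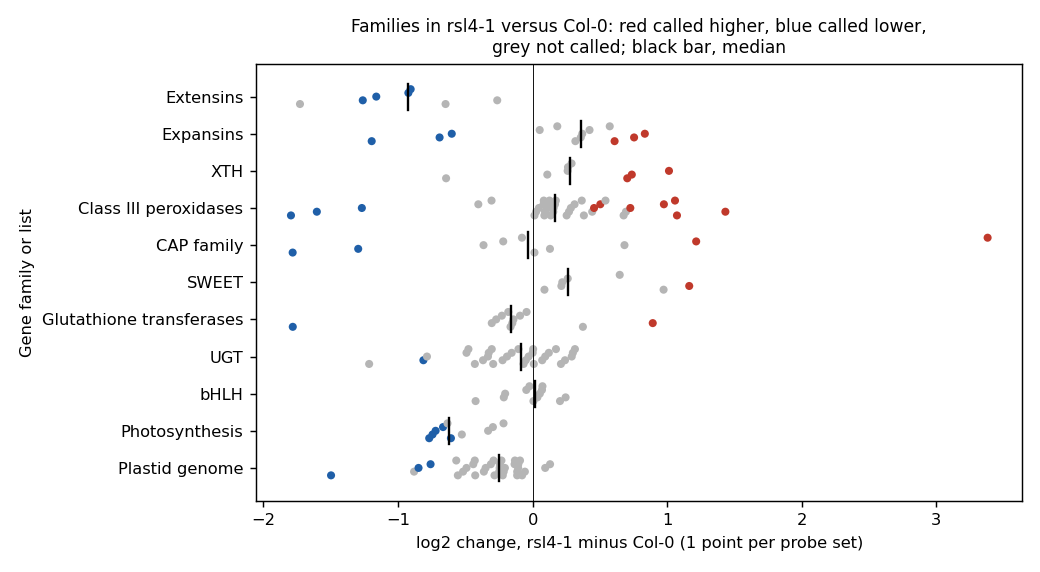
Log2 change of rsl4-1 over Col-0 for each tested probe set of 11 gene families or lists, 1 point per probe set, with called rises in red, called falls in blue, those not called in grey and the median as a black bar. Extensins (median -0.92) and photosynthesis genes (median -0.62) lie wholly below 0, and expansins and peroxidases hold called members on either side. No bHLH gene is called. The extensin, peroxidase, CAP and photosynthesis lists were assembled after the values were seen.

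Single members of other families rose outside the interval. SWEET11 (AT3G48740), a sucrose exporter gene, had signals of 191 and 155 in Col-0 and 429 and 346 in rsl4-1, a rise of 2.24-fold (log2 change 1.16, SE 0.15, adjusted p = 0.00021). It was also above Col-0 in 35S::RSL4, at 317 and 283. It was the 1 of 7 tested SWEET genes that was called, against 3.81% over all probe sets tested. AT2G43590, a chitinase gene, rose 2.11-fold, from 348 and 420.4 to 882 and 742 (log2 change 1.08, adjusted p = 0.00018). AT5G10770, a gene of the pepsin-like aspartyl proteases, rose 2.08-fold, from 70.3 and 87.4 to 172 and 154 (log2 change 1.06, adjusted p = 0.00064). AT4G22212, which encodes a defensin-like protein, rose 1.67-fold, from 807 and 719 to 1256 and 1285 (log2 change 0.74, adjusted p = 0.0014). AT4G33550 and AT2G37870 belong to the lipid transfer protein type of small secreted proteins. AT4G33550 rose 1.93-fold, from 199.9 and 174 to 340.0 and 382 (log2 change 0.95, adjusted p = 0.0006), and AT2G37870 1.93-fold, from 151 and 141 to 283 and 282 (log2 change 0.95, adjusted p = 0.00066). Their 35S::RSL4 signals, 183 and 193 and 152 and 178, lay within the Col-0 range or just above it. AT3G06460, of the ELO family of fatty acid elongases, was at least 2.62-fold higher in rsl4-1, at 21.9 and 20.2 in Col-0 and 73.2 and 46.5 in rsl4-1 (log2 change 1.47, adjusted p = 0.00084), and higher still in 35S::RSL4, at 75.8 and 103. AT1G10380 rose 2.07-fold (log2 change 1.05, adjusted p = 0.00064).

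The gene beside SP1L4 on chromosome 5 moved against it. AT5G15610, which encodes a protein with the PCI domain of proteasome and initiation factor subunits, rose 1.82-fold, from 217 and 195 to 374 and 373 (log2 change 0.86, SE 0.14, adjusted p = 0.0012). In 35S::RSL4 it was at 217 and 193, the Col-0 level, whereas SP1L4 was above Col-0 there. The pair was singled out after its values were seen.

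The other rises named outside the interval rest on dim signals in Col-0. AT3G44070 was at least 1.58-fold higher in the mutant (log2 change 2.45, adjusted p = 0.0006) and AT3G47250 at least 1.7-fold (log2 change 2.51, adjusted p = 0.0019). Both passed the filter through the 2 rsl4-1 arrays alone, so they could not be tested without either of them. AT1G12320 was at least 2.19-fold higher (adjusted p = 0.0033), a call that ended on omitting Col-0 array 2 (adjusted p = 0.063). AT3G15800, a gene of the family of beta-1,3-glucanases, was at least 1.23-fold higher (adjusted p = 0.0059), a call that ended on omitting Col-0 array 2 (adjusted p = 0.06), rsl4-1 array 1 (0.078) or rsl4-1 array 2 (0.061). AT1G10110 was at least 1.23-fold higher (adjusted p = 0.034), a call that ended on omitting Col-0 array 1 (adjusted p = 0.086) or Col-0 array 2 (0.29). AT5G19870 was at least 1.59-fold higher (adjusted p = 0.0045), a call that ended on omitting Col-0 array 1 (adjusted p = 0.063) or rsl4-1 array 1 (0.061). AT1G68230, of the reticulon family that shapes the endoplasmic reticulum, was at least 1.5-fold higher (adjusted p = 0.028), a call that ended on omitting Col-0 array 1 (adjusted p = 0.16), Col-0 array 2 (0.1) or rsl4-1 array 1 (0.34). AT4G33810 and AT5G59845, the latter of the gibberellin-regulated GASA type, were too dim for a fold. Their calls (adjusted p = 0.029 and 0.049) ended on omitting Col-0 array 1 (adjusted p = 0.16), Col-0 array 2 (0.095) or rsl4-1 array 2 (0.074) and on omitting Col-0 array 2 (adjusted p = 0.36) or rsl4-1 array 2 (0.14). Fitted without the filter, the calls of AT3G15800, AT1G10110, AT5G19870, AT1G68230, AT4G33810 and AT5G59845 ended (adjusted p from 0.052 to 0.2). With no intensity trend those of AT1G68230 and AT5G59845 ended (adjusted p = 0.063 and 0.057). That of AT5G59845 ended also with the replicate number as a block, after quantile normalization and in a fit of the 2 genotypes alone (adjusted p = 0.052, 0.057 and 0.055).

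Glutathione transferases, cytochromes P450 and the nitrate list had 2 of 12, 1 of 9 and 2 of 8 tested members called, against 3.81% over all probe sets. Of 12 tested glutathione transferases, which attach glutathione to toxins and metabolites, GSTF4 (AT1G02950) rose 1.86-fold (log2 change 0.89, adjusted p = 0.0081) and GSTU25, inside the interval, fell. The call of GSTF4 ended on omitting Col-0 array 2 (adjusted p = 0.1), rsl4-1 array 1 (0.079) or rsl4-1 array 2 (0.077). Of 9 tested cytochromes P450, CYP718 (AT2G42850) rose 1.83-fold (log2 change 0.87, adjusted p = 0.014), a call that ended on omitting Col-0 array 2 (adjusted p = 0.22), rsl4-1 array 1 (0.052) or rsl4-1 array 2 (0.16) and with no filter (adjusted p = 0.068). Of 8 tested genes of the nitrate list, GTR2 (AT5G62680), a glucosinolate transporter gene of the nitrate and peptide transporter family, rose 1.5-fold (log2 change 0.58, adjusted p = 0.014), a call that ended on omitting Col-0 array 1 (adjusted p = 0.11), Col-0 array 2 (0.13), rsl4-1 array 1 (0.12) or rsl4-1 array 2 (0.092) and with no intensity trend (adjusted p = 0.061). The family member AT1G33440, inside the interval, rose as well. AT3G45710, of the same family but not on the list, rose 1.53-fold (log2 change 0.61, adjusted p = 0.0073). That call ended on omitting Col-0 array 2 or rsl4-1 array 1. No change was called among 12 bHLH genes, 9 beta-glucosidases, 6 calmodulin-like genes, 5 WRKY genes or 5 defence genes tested. At the overall share of 3.81%, fewer than 1 call would fall in a list of each of these sizes. The lists were measured in part, with 5 of 98 listed defence genes tested, so these counts are of the lists only. Among genes outside the defence list, the chitinase gene AT2G43590 and the defensin-like gene AT4G22212, given above, rose. The disease resistance genes AT1G15890 and AT3G48080 fell (log2 change -1.35 and -0.75, adjusted p = 0.017 and 0.025). Those 2 calls ended on omitting any of the 4 arrays. FER, a receptor kinase gene, and SCN1, a gene that confines hair growth to a single site, had log2 changes of 0.08 and 0.03 (adjusted p = 0.82 and 0.94). AT2G37820, the 1 tested gene of the root hair specific list, was not called. Its signals, 27.3 and 24.5 in Col-0 and 28.5 and 20.5 in rsl4-1, overlapped. JKD, the 1 tested gene of the epidermal patterning list, was not called either, at 49.2 and 49.7 in Col-0 and 41.7 and 47 in rsl4-1.

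Some genes of photosynthesis and of the plastid genome fell in rsl4-1. A list of photosynthesis genes was assembled after the values were seen. Of 10 photosynthesis genes tested, 5 fell, against 2.15% of all probe sets tested. None rose and all 10 had log2 changes below 0, with a median of -0.62. The 5 were LHCB4.1 (AT5G01530), an antenna protein gene, PSAE-1 (AT4G28750) and PSBW (AT2G30570) of the photosystems, AT2G26500, of the cytochrome b6f complex, and AT5G58330, a plastid malate dehydrogenase gene. LHCB4.1 had signals of 219 and 188 in Col-0 and 137 and 119.8 in rsl4-1, and the mutant arrays were below both Col-0 arrays and beside those of 35S::RSL4, at 129 and 121 (log2 change -0.67, adjusted p = 0.016). The folds of the other 4 ran from 1.52 to 1.7. None of the 5 calls was firm, since each ended when some of the 4 arrays were left out: LHCB4.1 on omitting Col-0 array 1 (adjusted p = 0.21), Col-0 array 2 (0.058), rsl4-1 array 1 (0.054) or rsl4-1 array 2 (0.16), PSAE-1 on omitting Col-0 array 1 (adjusted p = 0.076), Col-0 array 2 (0.3) or rsl4-1 array 2 (0.27), PSBW on omitting Col-0 array 1 (adjusted p = 0.16), Col-0 array 2 (0.21), rsl4-1 array 1 (0.051) or rsl4-1 array 2 (0.27), AT2G26500 on omitting Col-0 array 1 (adjusted p = 0.051), Col-0 array 2 (0.41), rsl4-1 array 1 (0.12) or rsl4-1 array 2 (0.24) and AT5G58330 on omitting Col-0 array 1 (adjusted p = 0.35), rsl4-1 array 1 (0.22) or rsl4-1 array 2 (0.088). With no intensity trend those of LHCB4.1, PSAE-1 and AT5G58330 ended (adjusted p = 0.057, 0.065 and 0.07), and with no filter those of PSAE-1 and AT5G58330 (adjusted p = 0.11 and 0.09). Of 34 tested genes of the plastid genome, rpl33, rps4 and rpoA fell (8.82%), 31 did not pass and 32 were below 0, with a median of -0.25. rpoA, which encodes a subunit of the plastid RNA polymerase, went from 302 and 278 to 148 and 175, and to 149 and 129 in 35S::RSL4 (log2 change -0.85, adjusted p = 0.0025), a call that ended on omitting rsl4-1 array 1 (adjusted p = 0.057). The ribosomal protein genes rpl33 and rps4 fell 2.82-fold and 1.69-fold (adjusted p = 0.006 and 0.014), calls that ended on omitting Col-0 array 2 (adjusted p = 0.07) or rsl4-1 array 2 (0.097) and on omitting Col-0 array 1 (adjusted p = 0.1), Col-0 array 2 (0.12), rsl4-1 array 1 (0.064) or rsl4-1 array 2 (0.15). With no filter both ended (adjusted p = 0.067 and 0.052), and with no intensity trend that of rps4 (adjusted p = 0.063).

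Shoot tissue could be followed through few markers. Of the 13 fixed shoot markers, LHCB4.1 and RCA, the activase of carbon fixation, have probe sets in the annotation, and no marker of root cap, endodermis, vasculature, meristem or hairless epidermis does. The summed signal of the 2 shoot markers was 387 and 324 in Col-0, 258 and 258 in rsl4-1, and 257 and 251 in 35S::RSL4. LHCB4.1 is itself among the 5 photosynthesis genes that fell. RCA alone had signals of 168 and 136 in Col-0 and 122 and 139 in rsl4-1, which overlapped (log2 change -0.22, adjusted p = 0.54). The 10 photosynthesis genes summed to 1075 and 1000.4 in Col-0 and to 730.2 and 673 in rsl4-1, and the 34 plastid genes to 8697 and 8495 and to 7675 and 6552. In 35S::RSL4 the photosynthesis genes summed to 658 and 604 and the plastid genes to 6917 and 6371. Both lines were thus below Col-0 in both sums, and the lower sums were not particular to rsl4-1. The part of shoot tissue in these results was not tested.

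Inside the interval the called loci ran from AT1G16560 to AT1G44770. Of the loci on the annotated array, 583 were tested and 84 of these called, AT1G31710 on 2 probe sets. None of the 9 probe sets tested before AT1G16560 was called, nor any of the 34 after AT1G44770. The call of AT1G16560, a Per1-like gene, was at the threshold (239 and 217 in Col-0 and 304 and 336 in rsl4-1, log2 change 0.49, adjusted p = 0.0498) and ended on omitting Col-0 array 1 (adjusted p = 0.15), Col-0 array 2 (0.36), rsl4-1 array 1 (0.14), rsl4-1 array 2 (0.27), 35S::RSL4 array 1 (0.054) or 35S::RSL4 array 2 (0.053). It ended also with the replicate number as a block, after quantile normalization, with no filter, with no intensity trend and in a fit of the 2 genotypes alone (adjusted p = 0.068, 0.057, 0.074, 0.13 and 0.053). At the other end AT1G44770 fell 1.84-fold (log2 change -0.88, adjusted p = 0.0043), a call that ended on omitting Col-0 array 2 (adjusted p = 0.1) or rsl4-1 array 2 (0.098). Called genes were spread over the interval and were not densest beside RSL4. In consecutive stretches of 250 annotated loci with at least 20 probe sets tested, those of the interval had 0% to 26.9% of tested probe sets called, with a median of 13.9%, and 9 of 12 were over 10%. Of 126 such stretches elsewhere, with a median of 1.80%, 3 were over 10%. Of the thinner stretches left out, 2 elsewhere were also over 10%, with 1 of 4 and 2 of 14 probe sets called, and the interval held 2, with 2 of 11 and 0 of 5 called. The stretch that holds RSL4 had 12.5% called, 8 of 64. The densest 100 loci, AT1G23280 to AT1G24095, had 14 of 26 called (53.8%), 3 rises and 11 falls.

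**Figure D3:**
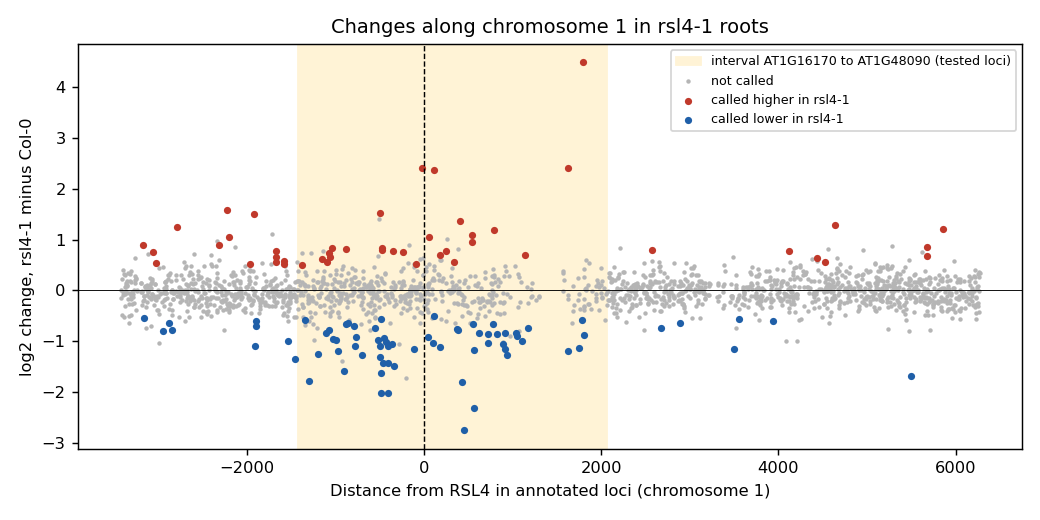
Log2 change of rsl4-1 over Col-0 for each tested probe set on chromosome 1, against its distance from RSL4 counted in annotated loci (dashed line at RSL4, interval shaded). Red points are called rises, blue called falls and grey points not called. Calls are spread over most of the shaded interval (85 of 590), with none at its ends, before AT1G16560 and after AT1G44770. They are sparser before the interval (23 of 476) and after it (14 of 906).

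Chromosome 1 differed by side. Before the interval 23 of 476 tested probe sets were called (4.83%), and after it 14 of 906 (1.55%). The shares were 2.58% on chromosome 2, 2.47% on chromosome 3, 2.36% on chromosome 4 and 2.82% on chromosome 5. At an unadjusted p under 0.05, 31.4% of the tested probe sets of the interval and 14.1% of those outside were counted. The median size of a log2 change was 0.22 inside and 0.16 outside, with the same median SE of 0.17. In the comparison of 35S::RSL4 with the same Col-0 arrays, 29 of the 590 probe sets of the interval were called (4.92%) and 401 of the 7071 outside (5.67%).

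**Figure D4:**
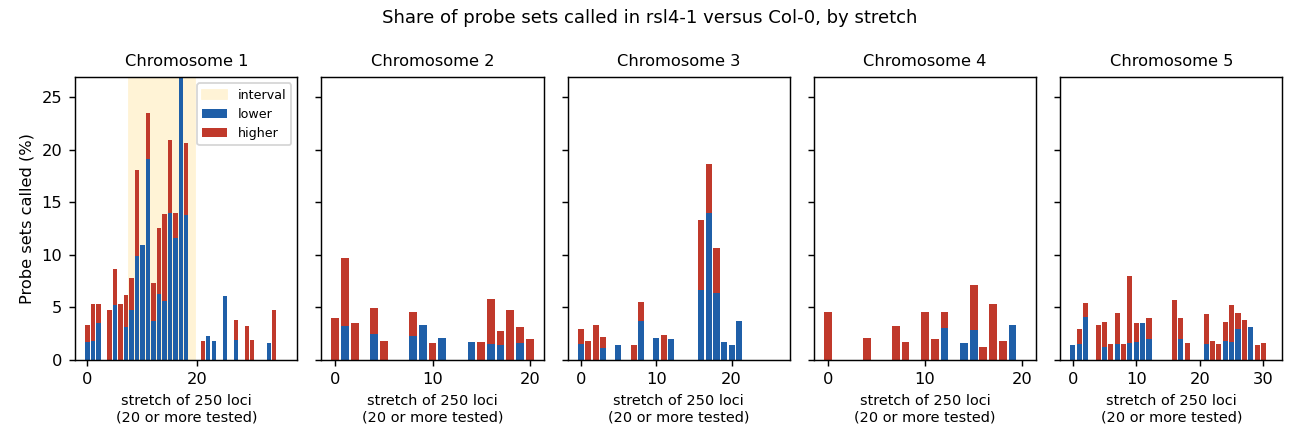
Share of tested probe sets called (%), in consecutive stretches of 250 annotated loci with at least 20 tested, along chromosomes 1 to 5, with falls in blue and rises in red stacked on them and the interval shaded. The interval reaches 26.9%, and the 3 stretches over 10% elsewhere, the highest at 18.6%, lie together on chromosome 3.

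The falls inside the interval were in genes of many functions. AT1G31910 encodes phosphomevalonate kinase, an enzyme of the mevalonate pathway to sterols. It had signals of 723 and 824 in Col-0 and 180.0 and 135 in rsl4-1, and of 687 and 574 in 35S::RSL4. The mutant arrays were the lowest by a wide margin, and the fall from Col-0 was 4.95-fold (log2 change -2.31, SE 0.15, adjusted p = 1.6e-07). AT1G23440, a pyroglutamyl peptidase-like gene, had signals of 195 and 180.4 in Col-0 and 54.6 and 39.3 in rsl4-1, a fall of 4.05-fold (log2 change -2.02, SE 0.17, adjusted p = 2e-06). AT1G20220, of the Alba family that binds nucleic acids, fell 2.99-fold, from 206 and 193 to 68 and 65.6 (log2 change -1.58, SE 0.14, adjusted p = 4.8e-06). In 35S::RSL4 these 2 were at 206 and 236 and at 197 and 174, near or above Col-0. AT1G24040, a gene of the GNAT acetyltransferases, was at least 2.56-fold lower, at 49.2 and 63 in Col-0 and 12.3 and 15.2 in rsl4-1 (log2 change -2.02, adjusted p = 2.4e-05). AT1G23390, a Kelch-repeat F-box gene, fell 3.1-fold, from 175 and 244 to 78 and 57.2 (log2 change -1.63, adjusted p = 4.3e-05). AT1G24530, of the WD40 repeat proteins, fell 2.79-fold, from 130.3 and 135 to 47.4 and 47.5, with 80.4 and 95.3 in 35S::RSL4 (log2 change -1.48, adjusted p = 2.5e-05).

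Among these falls were 2 class III peroxidase genes and a glutathione transferase gene. The class III peroxidase gene AT1G30870 had signals of 596 and 486 in Col-0 and 168 and 144 in rsl4-1, and of 743 and 962 in 35S::RSL4. Its relative AT1G34510 had 259 and 242 in Col-0 and 120.4 and 89.8 in rsl4-1, and 601 and 791 in 35S::RSL4. For both the genotypes were apart in the order rsl4-1, Col-0, 35S::RSL4, and the falls were 3.47-fold (adjusted p = 2.3e-06) and 2.41-fold (adjusted p = 0.00021). GSTU25 (AT1G17180), a glutathione transferase gene of the tau class, was at 277 and 271 in Col-0 and 84.2 and 75.5 in rsl4-1, and at 359.8 and 512 in 35S::RSL4 (log2 change -1.78, adjusted p = 4.6e-06), the same order. GER2 (AT1G17890), an enzyme gene for GDP-fucose, a sugar donor for wall polymers, fell 2.38-fold, from 191 and 252 to 86.1 and 98.3 (log2 change -1.25, adjusted p = 0.00015). AT1G31850, a methyltransferase gene, fell 2.24-fold, from 232 and 203 to 94.7 and 99 (log2 change -1.17, adjusted p = 0.00011). In 35S::RSL4 GER2 and AT1G31850 were at 227 and 238 and 218 and 239, within or beside the Col-0 range.

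Other falls of the interval also held without each of the 4 arrays. AT1G21730, a kinesin gene, was at least 1.89-fold lower (log2 change -1.28, adjusted p = 0.002), AT1G29070, for a plastid ribosomal protein of the L34 type, fell 2.16-fold (log2 change -1.11, adjusted p = 0.0003), and AT1G35330, of the RING ubiquitin ligases, fell 1.85-fold (log2 change -0.89, adjusted p = 0.002). The 35S::RSL4 arrays of AT1G35330 were at 209 and 185, above the Col-0 arrays at 101 and 106. AT1G23560, AT1G43020, AT1G32920, AT1G35612 and AT1G19240, with no role given here, fell 2.68-fold, 2.27-fold, 2.06-fold, 1.98-fold and 1.93-fold. Of these AT1G32920 was as low in 35S::RSL4, at 135 and 131, as in rsl4-1, at 131 and 140.1. The largest fitted fall of the interval was that of AT1G30990, whose mutant arrays, at 1.25 and 13.1, lay far apart from each other. It was at least 1.25-fold lower (log2 change -2.75, SE 0.67, adjusted p = 0.029), a call that ended on omitting Col-0 array 1 (adjusted p = 0.15), Col-0 array 2 (0.13), rsl4-1 array 1 (0.13), 35S::RSL4 array 1 (0.07) or 35S::RSL4 array 2 (0.071). It ended also with no filter, with no intensity trend and in a fit of the 2 genotypes alone (adjusted p = 0.17, 0.12 and 0.078).

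Among the rises of the interval hemb2 (AT1G44318), a gene of tetrapyrrole synthesis near the end of the called loci, stood far apart. Its signals were 15.8 and 8.39 in Col-0 and 274 and 243 in rsl4-1, and 20.2 and 18.7 in 35S::RSL4. The 4 arrays of the other genotypes were all dim, and rsl4-1 was at least 11.6-fold higher (log2 change 4.49, SE 0.25, adjusted p = 2.2e-08). AT1G43040, an auxin-responsive SAUR gene, was at least 2.33-fold higher, at 9.36 and 10.2 in Col-0 and 51.4 and 52.4 in rsl4-1 (log2 change 2.41, adjusted p = 5.8e-05). AT1G28590, of the GDSL lipases, was at least 1.72-fold higher, at 9.93 and 5.64 in Col-0 and 33.7 and 43.8 in rsl4-1 (log2 change 2.36, adjusted p = 0.0012). These 3 passed the filter through the 2 rsl4-1 arrays alone, so they could not be tested without either of them. AT1G23330, an alpha/beta hydrolase gene, rose 2.86-fold, from 86.7 and 90.9 to 242 and 267 (log2 change 1.52, SE 0.14, adjusted p = 7.7e-06). AT1G30760, a berberine bridge enzyme-like oxidase gene, rose 2.58-fold, from 50.8 and 55.4 to 143 and 131 (log2 change 1.37, SE 0.15, adjusted p = 4.7e-05). In 35S::RSL4 these 2 were at 111 and 98.9 and 82.8 and 90.1, above Col-0 and well below the mutant.

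AT1G31710, a copper amine oxidase gene, is the 1 locus called on 2 probe sets. On the brighter it rose 1.94-fold, from 478 and 475 to 917 and 929 (log2 change 0.95, SE 0.12, adjusted p = 0.00016). On the dimmer it rose 2.13-fold, from 39.1 and 51.5 to 108 and 84.6 (log2 change 1.09, SE 0.23, adjusted p = 0.013), a call that ended on omitting Col-0 array 1 (adjusted p = 0.15) or rsl4-1 array 1 (0.18) and with no filter or no intensity trend (adjusted p = 0.083 and 0.067). The 2 probe sets gave the same direction and similar sizes. CSLA03 (AT1G23480), of the mannan synthase family, rose 1.8-fold (log2 change 0.84, adjusted p = 0.0089), a call that ended on omitting Col-0 array 2 (adjusted p = 0.13), rsl4-1 array 1 (0.085) or rsl4-1 array 2 (0.073). AT1G27570 was at least 1.47-fold higher in the mutant, and AT1G33440 at least 1.6-fold (adjusted p = 0.0094 and 0.024). Their calls ended on omitting Col-0 array 2 (adjusted p = 0.13) and on omitting Col-0 array 1 (adjusted p = 0.056) or Col-0 array 2 (0.22), and with no filter (adjusted p = 0.083 and 0.12), and they were too dim without either rsl4-1 array.

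**Figure D5:**
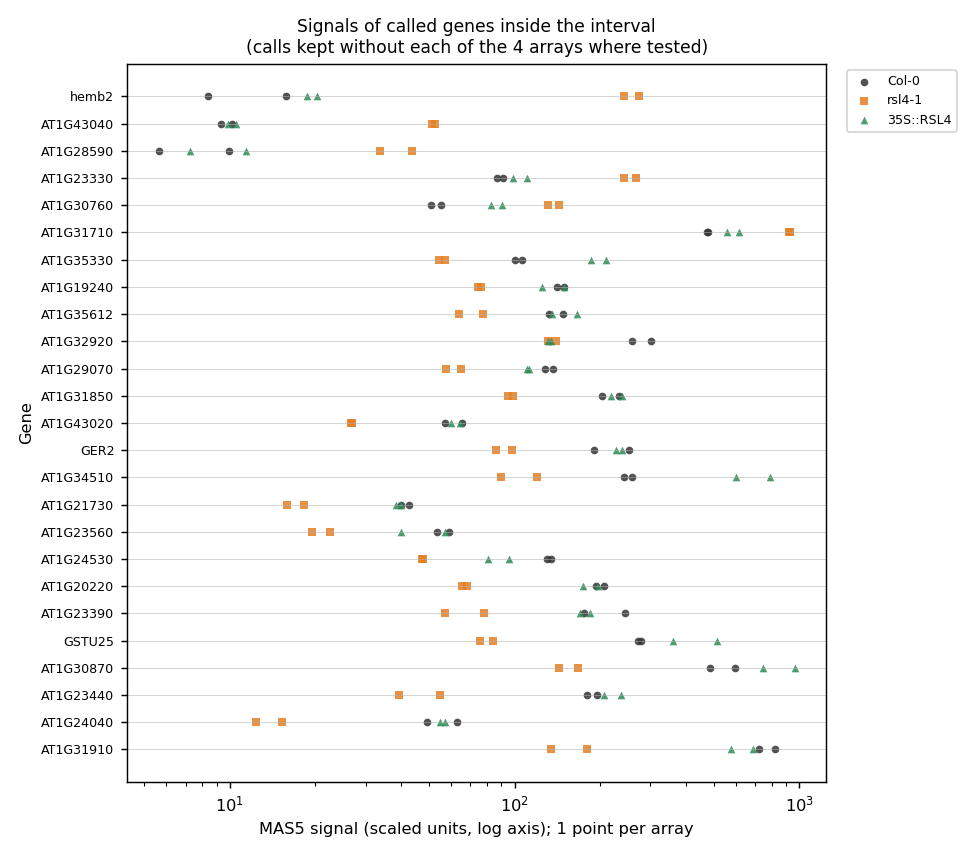
MAS5 signal (scaled units, log axis) of each array for the genes inside the interval whose calls held without each of the 4 arrays wherever tested, 1 point per array, ordered by log2 change from rises at the top to falls at the bottom. Circles are Col-0, squares rsl4-1 and triangles 35S::RSL4. The squares stand apart from the circles in every row, from hemb2 (12.1 in Col-0 and 258 in rsl4-1 on average) to AT1G31910 (773 and 157).

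A run of calls on chromosome 3 was noticed after the values were seen. From AT3G44070 to AT3G49000, 17 of 120 tested probe sets were called (14.2%), 6 rises and 11 falls, against 21 of 1421 on the rest of that chromosome (1.48%). It holds AT3G44070, AT3G47250 and SWEET11 among the rises and AT3G48940, AT3G47070 and EXLA3 among the falls, all described above. Outside both this run and the interval, 100 of 6951 tested probe sets rose and 69 fell, together 2.43%.

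Probe sets without a single placed gene gave a share of calls between those of the 2 placed groups. Of 6509 tested, 104 were higher in rsl4-1 (1.6%) and 165 lower (2.53%), together 4.13%. Whether any of them measures RSL4 or lies in the interval is not known here. Their rises are given here by count only. The 2 with the largest falls had signals of 61.9 and 52.1 in Col-0 and 3.13 and 0.928 in rsl4-1, and of 175 and 179 in Col-0 and 25.6 and 19.8 in rsl4-1, with 386 and 407 and 361 and 454 in 35S::RSL4. Both were lowest in the mutant and highest in 35S::RSL4. The falls were at least 2.61-fold (log2 change -5.06, SE 0.37, adjusted p = 4.7e-07) and 7.87-fold (log2 change -2.98, SE 0.17, adjusted p = 2.2e-08).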

How the data were processed

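Per the submitters' processing notes, the authors made the deposited signals, an intensity per probe set on a linear scale, with MAS5 and GCOS; versions are not given in the sources used here, nor are scan batches. Their log2 was taken without further normalization. With all 6 arrays in one fit, limma 3.58.1 under R 4.3.3 (functions lmFit and eBayes, the latter with trend by mean intensity) gave 3 residual and 13.2 prior degrees of freedom and two-sided p-values. The smallest p that exact permutation of 2 against 2 arrays allows is 0.333. The number of arrays limits the precision. The fit was also run on simulated data drawn from its own variance estimates. That checks the code and says nothing of how well the model describes these arrays.

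Of 22810 probe sets, 64 controls were left out. GEO's platform annotation gave 1 gene for 13523, several for 493, and leaves 8730 unlisted and so unnamed here. Of the first, 13436 were found by gene number in RefSeq's gene table for TAIR10.1 and 48 more by locus number. The order of loci comes from that table, and no coordinates are given. Folds are the log2 changes raised from base 2. Where both arrays of a genotype lay under the 40th percentile, the fold is at least the bright mean over the dim one, each dim array taken at the higher of that percentile and its own signal.

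The members, the 52 gene lists and the rules were chosen with earlier results of these data known, and 4 lists (class III peroxidases, CAP proteins, extensins and photosynthesis by locus) after the values were seen. No member of 13 lists was tested, and 17 others had no called member. Named were the 12 largest rises and falls outside the interval, the 8 largest inside and up to 3 called members of each list. So were the tested genes of the root hair and epidermal patterning lists and the first and last called loci of the interval. Genes were also named, after their values were seen, where the call held without each of the 4 arrays. Same-numbered arrays deviated from their genotype means with correlations from -0.19 to 0.12, so the numbers did not pair them. As alternatives, arrays were quantile normalized or centred on their medians, and the fit was run with no filter, an offset, no intensity trend, the 2 genotypes alone, a replicate block, a threshold of 0.1, other loci set apart, locus means or each array omitted. A planned search of promoters for motifs was not run, since no sequence was used here.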

Additional observations from a re-analysis of the deposited data

How the results depend on the processing

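The 6 counts of calls are given in one order: all rises, all falls, rises and falls inside the interval, rises and falls outside it (as reported 236, 304, 26, 59, 106 and 80). Leaving out an array in turn gave 60 to 236, 117 to 287, 5 to 23, 21 to 59, 29 to 110 and 28 to 75. With no filter they were 107, 158, 11, 37, 47 and 33. With no intensity trend they were 136, 221, 17, 45, 58 and 60, so that rises no longer outnumbered falls outside. At a threshold of 0.1, all rises numbered 401, rises outside 182 and falls outside 146. Setting apart the 500 loci each side of RSL4 in place of the interval gave 13 rises and 22 falls there, and setting apart chromosome 1 gave 48 rises. The replicate number as a block gave 230, 290, 24, 60, 103 and 76 and, of the 76 probe sets followed through the alternatives, ended the calls of AT1G16560 and AT5G59845 alone, and crossed numbers, chosen after seeing the data, 371, 406, 35, 75, 174 and 124. Other counts stayed within 1.5 times; the split under median centring is given with the counts. Of 1038 alternative values for those 76 probe sets, 896 kept their side of the threshold, 140 lost the call, 1 gained it (XTH26 at a threshold of 0.1) and 1, never called, changed sign (SCN1, -0.077 without rsl4-1 replicate 2 and 0.14 without rsl4-1 replicate 1). Other called genes given were followed only through the omitted Col-0 and rsl4-1 arrays. An omitted array leaves 1 of its genotype, whose spread is then taken from the other genotypes. Dim probe sets near the 40th percentile carry bounds only.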

Other observations

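Several called genes belong to none of the lists, and those below were singled out after their values were seen. Outside the interval, LIL3:2 (AT5G47110), a gene for a light-harvesting-like protein that anchors chlorophyll synthesis enzymes, fell 2-fold, from 109 and 136 to 71.8 and 51.5 (adjusted p = 0.0041). ICL (AT3G21720), for isocitrate lyase of the glyoxylate cycle, fell 1.74-fold (adjusted p = 0.036). CHIL (AT5G05270), a chalcone isomerase-like gene of flavonoid synthesis, fell 1.54-fold (adjusted p = 0.024), and CCS (AT1G12520), a gene for the copper chaperone of superoxide dismutase, fell 1.52-fold (adjusted p = 0.031). Among the rises, GH9C2 (AT1G64390), of the cellulase family, rose 1.72-fold, from 414 and 382 to 594 and 788 (adjusted p = 0.0058), and MTP11 (AT2G39450), a manganese transporter gene, rose 1.56-fold (adjusted p = 0.02). CPI1 (AT5G50375), an enzyme gene of sterol synthesis, rose 1.48-fold (adjusted p = 0.049). The LIL3:2 call ended on omitting Col-0 array 2 (adjusted p = 0.095) or rsl4-1 array 2 (0.088). The ICL call ended on omitting Col-0 array 1 (adjusted p = 0.33), Col-0 array 2 (0.095), rsl4-1 array 1 (0.18) or rsl4-1 array 2 (0.15). The CHIL call ended on omitting Col-0 array 1 (adjusted p = 0.064), Col-0 array 2 (0.28), rsl4-1 array 1 (0.11) or rsl4-1 array 2 (0.16). The CCS call ended on omitting Col-0 array 1 (adjusted p = 0.14), Col-0 array 2 (0.23), rsl4-1 array 1 (0.084) or rsl4-1 array 2 (0.22). The GH9C2 call ended on omitting Col-0 array 2 (adjusted p = 0.083) or rsl4-1 array 2 (0.13). The MTP11 call ended on omitting Col-0 array 1 (adjusted p = 0.21), Col-0 array 2 (0.064) or rsl4-1 array 2 (0.23). The CPI1 call ended on omitting Col-0 array 1 (adjusted p = 0.16), Col-0 array 2 (0.31), rsl4-1 array 1 (0.13) or rsl4-1 array 2 (0.29).

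Inside the interval, MENG (AT1G23360), a methyltransferase gene of phylloquinone synthesis, fell 2.48-fold, from 54.7 and 63.9 to 18.7 and 30.5 (adjusted p = 0.0043). PHV (AT1G30490), of the HD-ZIP III transcription factors of organ polarity, fell 1.7-fold, from 112 and 116 to 72.8 and 61.6 (adjusted p = 0.0092). LSM3A (AT1G21190), a gene for a core protein of RNA splicing and decay complexes, fell 1.88-fold (adjusted p = 0.0027), and SBT3.5 (AT1G32940), a subtilisin-like protease gene, fell 1.82-fold (adjusted p = 0.017). TBL38 (AT1G29050), of a family that acetylates wall polymers, rose 1.63-fold, from 271 and 253 to 459 and 394 (adjusted p = 0.0072), and ATJ1 (AT1G28210), a DnaJ-type chaperone gene, rose 2.08-fold (adjusted p = 0.024). The MENG call ended on omitting Col-0 array 2 (adjusted p = 0.074) or rsl4-1 array 1 (0.083). The PHV call ended on omitting Col-0 array 1 (adjusted p = 0.068), Col-0 array 2 (0.11) or rsl4-1 array 2 (0.12). The LSM3A call ended on omitting Col-0 array 2 (adjusted p = 0.061). The SBT3.5 call ended on omitting Col-0 array 1 (adjusted p = 0.074), Col-0 array 2 (0.18), rsl4-1 array 1 (0.076) or rsl4-1 array 2 (0.12). The TBL38 call ended on omitting Col-0 array 2 (adjusted p = 0.1) or rsl4-1 array 1 (0.13). The ATJ1 call ended on omitting Col-0 array 1 (adjusted p = 0.23), rsl4-1 array 1 (0.11) or rsl4-1 array 2 (0.2).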
